A study of Mus musculus with 6 samples.

Results

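The genes described here are 31 dioxygenases of the TET, Jumonji C (JmjC) and ALKBH families, with the related prolyl hydroxylase Ogfod1, taken as a fixed list of symbols out of 55414 genes in the deposited table. They remove or oxidise methyl groups on DNA, histones and RNA, or hydroxylate proteins. RNA sequencing was done on TM4, a mouse testis line that serves as a Sertoli cell model; Sertoli cells are the somatic cells that nurse developing germ cells. The 3 libraries of the group called VC were compared with 3 control libraries of the same male line. The sources conflict on the agent: the series title points to vitamin C, whereas valine is named in a sample characteristic and in the design text, and the label VC is therefore kept. No dose, exposure time or control vehicle was stated, and nothing says that the 3 replicates of a group came from separate cultures, so p-values measure the spread among these samples, which may be technical.

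Most of these proteins belong to the oxygenases that use iron and 2-oxoglutarate, split molecular oxygen and release succinate. Ascorbate (vitamin C) keeps the iron of many such enzymes in its reduced form, and succinate, fumarate and 2-hydroxyglutarate compete with 2-oxoglutarate. These regulators act on the enzymes, and RNA levels report only on how much messenger RNA each gene contributes. In the mouse testis, loss of Kdm3a or of Alkbh5 disturbs sperm formation.

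No member of the family had an adjusted p under 0.05 by limma between VC and control, while limma-voom on recovered reads called Tet2 alone. Tet2, which encodes an enzyme that oxidises 5-methylcytosine, had the largest difference, 2.67 ± 0.127 in VC libraries and 1.94 ± 0.0969 in control libraries (SD, n = 3 each). Phf2, a demethylase of histone H3 lysine 9, had the largest difference in the other direction, 15.8 ± 0.508 in VC libraries and 17.7 ± 0.444 in control libraries. Values are on a transcripts-per-million-like scale, which is per length and carries 1 scaling factor for each library. In most members the VC and control libraries overlapped. On the log2(value + 1) scale, the limma interval of each of the 29 tested lay within 1.5-fold either way. That scale makes changes of low genes come out too small, and the limma-voom interval of Tet2 on recovered reads reached 1.57-fold.

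Depth was similar across libraries, with 20408434 to 22316828 reads recovered from the deposited values, and the members that passed the filter held 109 to 4495 reads in a library. Control replicate 3 stood apart: the chi-square statistic per degree of freedom between 2 libraries was 9.59 to 17.3 for the 5 pairs with it and 2.78 to 7.31 for the other 10 pairs. Of 16 Sertoli markers, 9 reached a value of 1 in at least 3 libraries, while Wt1, Fshr, Dmrt1 and Shbg were at 0 in all 6; their sum was 511 to 528 in VC and 473 to 482 in control. Of 5 peritubular myoid and smooth muscle markers 3 passed (Acta2, Cnn1 and Tagln), while Myh11 and Des did not. The sums were 392 to 402 in VC and 609 to 668 in control. Germ cell markers summed to at most 0.557 in VC and 0.204 in control, with Ddx4, Stra8, Zbtb16 and Kit at 0 in all 6 libraries; 1 of 6 Leydig markers (Hsd3b1 and Lhcgr at 0), 1 of 5 macrophage markers (Adgre1 at 0) and 1 of 4 endothelial markers passed. Their sums were 2.74 to 3.53 in VC and 2.34 to 3.31 in control for Leydig markers, 3.78 to 4.88 in VC and 3.57 to 5.81 in control for macrophage markers, and 1.76 to 2.25 in VC and 1.32 to 1.86 in control for endothelial markers. The part of the smooth muscle markers in any result below was not tested.

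A gene was tested where its value reached 1 in at least 3 of the 6 libraries, which 29 of the 31 members did, and VC was compared with control by limma on log2(value + 1) with adjustment over all 13972 genes tested. Of the 29, 0 had an adjusted p under 0.05, against 96 of 13972 genes, or 0.687% (0.429% higher and 0.258% lower in VC). At an unadjusted p under 0.05 there were 3 members (10.3%), against 17.2% of all genes. Fitted to the recovered reads, limma-voom called 1 member, Tet2, against 3.98% of 13772 genes (2.48% higher in VC, as Tet2 was), and gave 7 members (24.1%) an unadjusted p under 0.05, against 20% of all genes. The adjusted p of the members ran from 0.18 to 0.99 and the differences from -0.16 to 0.32 on the log2(value + 1) scale, where changes of low genes come out too small. The median difference was 0.05, against 0.012 over all genes tested, and 20 members (69.0%) lay above 0 and 9 below, against 53.7% of all genes above 0.

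In 7 of the 29 members (24.1%) the 3 VC values lay wholly on one side of the 3 control values, against 25.6% of all genes tested. For 5 of them the VC values were the higher ones (Tet2, Jmjd1c, Kdm5c, Phf8 and Kdm7a), against 13.9% of all genes. For 2 they were the lower ones (Kdm5b and Phf2), against 11.6% of all genes. Their direction was the same with equal totals, quantile scaling and the length trend removed. The share of the family is close to that of all genes, so non-overlap alone does not set the family apart.

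**Figure D1:**
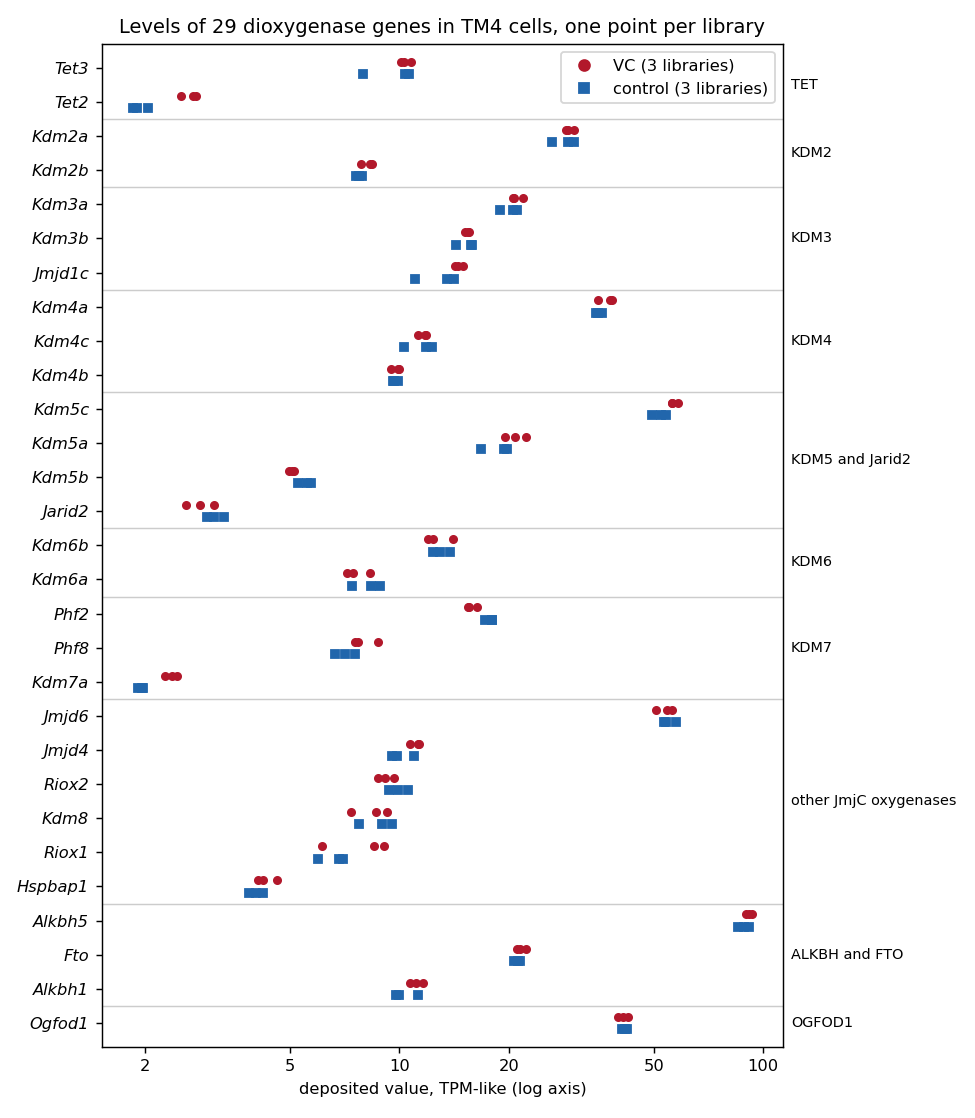
Deposited values of the 29 members that passed the filter, on a log axis, with 1 point for each of the 3 VC and 3 control libraries and the genes grouped by class. VC and control points lie close together for most genes, from Alkbh5 near the top of the scale at a mean of 89.9 to Kdm7a at 2.16.

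Levels spanned a wide range. Over all 6 libraries Alkbh5 had the highest mean (89.9), followed by Jmjd6 (54.5), Kdm5c (54.4), Ogfod1 (41.4), Kdm4a (36.2) and Kdm2a (28.95). Jmjd6 and Kdm5c are neighbours in this order that do not differ beyond their spread. The lowest members that passed were Jarid2 (2.98), Tet2 (2.30) and Kdm7a (2.16). Ranked among all genes tested, the members lay between percentiles 13.2 and 87.9, with a median of 41.9. The median coefficient of variation was 3.66% among VC libraries and 5.59% among control libraries, or 2.53% among control libraries without replicate 3.

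The TET enzymes oxidise 5-methylcytosine in DNA to 5-hydroxymethylcytosine and further products, the first steps of active DNA demethylation. Tet3 carried most of their summed level, with 10.1, 10.8 and 10.3 in VC replicates 1 to 3 and 10.4, 10.6 and 7.94 in control replicates 1 to 3. Its groups overlapped, and control replicate 3 was the low library (difference 0.10, limma adjusted p = 0.66; without control replicate 3 the difference was -0.018). Tet2 stood at 2.52, 2.72 and 2.76 in VC and at 2.04, 1.91 and 1.86 in control. All 3 VC libraries were above all 3 control libraries. The limma difference was 0.32 (SE 0.11, 95% interval 0.058 to 0.58, adjusted p = 0.22, n = 3 each).

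The reads behind Tet2 numbered 349, 353 and 375 in VC and 267, 256 and 260 in control. Limma-voom on these reads gave 1.38-fold higher Tet2 in VC, with a 95% interval of 1.21 to 1.57 and an adjusted p of 0.0107. Limma on the deposited values gave an adjusted p between 0.10 and 0.46 across the other 16 alternatives, so the call rests on the choice of the read-based fit. In these bulk libraries, fewer cells that express a gene and less of its RNA per cell cannot be told apart.

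Tet1 was close to absent, with 1 read in all over the 3 VC libraries and 5 reads over the 3 control libraries, and was not tested. The summed TET level was 13.1 ± 0.420 in VC and 11.6 ± 1.56 in control, or 12.5 in control without replicate 3. Tet2 made up 19.96%, 20.2% and 21.1% of the summed TET level in VC and 16.4%, 15.2% and 18.9% in control. The ratio of Tet3 to Tet2 was 3.90 ± 0.150 in VC and 4.98 ± 0.657 in control (SD, n = 3 each), with no overlap between the groups. A ratio of 2 genes within a library does not depend on the library's scaling factor. The ratios given here were chosen after the values were seen, and a two-sided exact permutation test of 3 against 3 libraries cannot go below p = 0.1.

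Promoter sequences are shown for Tet2, Phf2 and Kdm5c, the 3 members with an unadjusted limma p under 0.05. Each runs over the 250 bases before the annotated start in RefSeq (build GRCm38.p6), 5′ to 3′ on the gene's strand, and capitals mark CpG dinucleotides, the sites whose methylated cytosine TET enzymes oxidise and that the CXXC domains of KDM2 proteins bind when unmethylated. Tet2 lies at chr3:133544391-133544640 (minus strand), Phf2 at chr13:48870886-48871135 (minus strand) and Kdm5c at chrX:152232977-152233226 (plus strand).
Tet2: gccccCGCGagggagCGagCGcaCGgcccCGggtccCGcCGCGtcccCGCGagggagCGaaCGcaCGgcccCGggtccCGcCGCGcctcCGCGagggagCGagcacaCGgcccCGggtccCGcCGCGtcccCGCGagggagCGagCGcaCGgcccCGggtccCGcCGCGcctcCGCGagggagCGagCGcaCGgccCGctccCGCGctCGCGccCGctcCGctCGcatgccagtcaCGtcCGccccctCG
Phf2: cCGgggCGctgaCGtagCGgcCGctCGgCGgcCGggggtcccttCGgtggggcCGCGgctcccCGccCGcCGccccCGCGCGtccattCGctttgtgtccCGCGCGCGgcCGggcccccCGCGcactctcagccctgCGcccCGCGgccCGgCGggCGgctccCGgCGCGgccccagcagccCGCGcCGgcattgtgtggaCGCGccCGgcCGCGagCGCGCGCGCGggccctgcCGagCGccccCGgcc
Kdm5c: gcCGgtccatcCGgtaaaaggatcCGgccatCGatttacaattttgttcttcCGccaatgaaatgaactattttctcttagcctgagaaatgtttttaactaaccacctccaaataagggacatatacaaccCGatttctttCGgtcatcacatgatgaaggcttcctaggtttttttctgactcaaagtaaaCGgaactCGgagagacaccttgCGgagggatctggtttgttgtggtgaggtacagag
The stretches of Tet2 and Phf2 hold 51 and 50 CpG sites, whereas that of Kdm5c holds 10. The only ACGTG or GCGTG motif of the Tet2 stretch, read on the reverse strand, lies 16 bases before the start, and Phf2 and Kdm5c have none.

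RefSeq promoters of 26 of the 31 members were matched, 34 promoters in all; Kdm2a, Kdm3b, Kdm4b, Kdm5a and Kdm6b had no entry. Their median was 18 CpG sites, against 6 for all 32851 promoters and 16 for the 11457 promoters of tested genes. The motif ACGTG or GCGTG, the core of the hypoxia response element searched on both strands, was present in 21 of 34 (61.8%), against 38.6% of all promoters and 56.5% of those of tested genes. The E-box CACGTG, which overlaps ACGTG, was present in 3 of 34 (8.82%), against 6.02% of all and 8.37% of those of tested genes. These matches describe the letters only, and base composition differs between the sets.

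The KDM2 enzymes remove methyl groups from lysine 36 of histone H3, and KDM2B also brings a variant Polycomb repressive complex 1 to CpG islands. Kdm2a stood at 29.2, 28.8 and 30.2 in VC and at 30.1, 29.1 and 26.4 in control. The groups overlapped, and the low library was control replicate 3 (difference 0.04, limma adjusted p = 0.74). Kdm2b averaged 8.21 in VC and 7.76 in control, also with overlap (adjusted p = 0.59).

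The KDM3 family acts on mono- and dimethylated lysine 9 of histone H3, although the demethylase activity of JMJD1C is disputed. Kdm3a stood at 20.7, 20.6 and 21.8 in VC and at 21.1, 20.6 and 18.9 in control, with overlap (adjusted p = 0.64). Jmjd1c stood at 14.5, 15.0 and 14.2 in VC and at 13.6, 14.1 and 11.1 in control. Its groups were separated by a narrow margin, 14.2 in the lowest VC library and 14.1 in the highest control library. Control replicate 3 was far below the others (limma difference 0.17, SE 0.091, adjusted p = 0.39). Without control replicate 3 the difference was 0.069. Kdm3b averaged 15.4 in VC and 15.3 in control, and 24.6% of its exon bases are shared with Gm26538 on the opposite strand, so reads of the 2 genes cannot be told apart where the strand setting is not stated. The family sum was 51.0 ± 0.259 in VC and 48.5 ± 3.58 in control, and 50.5 in control without replicate 3.

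The KDM4 enzymes remove trimethylation from lysine 9 and lysine 36 of histone H3. Kdm4a, the highest of them, stood at 38.0, 35.2 and 38.5 in VC and at 35.98, 35.2 and 34.6 in control, with overlap (difference 0.08, limma adjusted p = 0.45). Kdm4b and Kdm4c overlapped as well, with adjusted p of 0.97 and 0.94. Kdm4d, a member that in the mouse is expressed mainly in testis germ cells, was under the filter. It had 1, 3 and 5 reads in VC and 0, 0 and 1 reads in control, a rate ratio of 9.15 whose exact 95% interval of 1.27 to 401 covers counting error only.

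The KDM5 enzymes remove di- and trimethylation from lysine 4 of histone H3, a mark of active promoters, and Jarid2 is a relative without demethylase activity that partners Polycomb repressive complex 2 (PRC2). Kdm5c, which is X-linked, stood at 56.1, 58.3 and 56.0 in VC and at 54.0, 52.2 and 49.5 in control. All VC libraries were above all control libraries (limma difference 0.13, SE 0.044, adjusted p = 0.22, n = 3 each). Kdm5b, its autosomal relative, stood at 4.98, 5.09 and 5.13 in VC and at 5.72, 5.58 and 5.28 in control. All VC libraries were below all control libraries (difference -0.11, SE 0.073, adjusted p = 0.50).

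The ratio of Kdm5c to Kdm5b was 11.3, 11.5 and 10.9 in VC and 9.43, 9.37 and 9.38 in control. The 3 control libraries were almost equal in this ratio, control replicate 3 included, and lay below all VC libraries. That separation was fixed in advance, because Kdm5c was higher and Kdm5b lower in every VC library, and it adds no further evidence. Together the KDM5 genes and Jarid2 summed to 85.6 ± 2.501 in VC and 79.3 ± 4.19 in control, or 81.6 in control without replicate 3. Kdm5b made up 5.92% ± 0.143 of the summed level of the KDM5 genes and Jarid2 in VC and 6.97% ± 0.0908 in control. Kdm5a averaged 20.9 in VC and 18.7 in control with overlap (adjusted p = 0.38), and Jarid2 averaged 2.84 in VC and 3.12 in control with overlap (adjusted p = 0.65). The Y-linked homologue Kdm5d was under the filter, at 0.346, 0.214 and 0.360 in VC and 0.255, 0.265 and 0.222 in control.

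**Figure D2:**
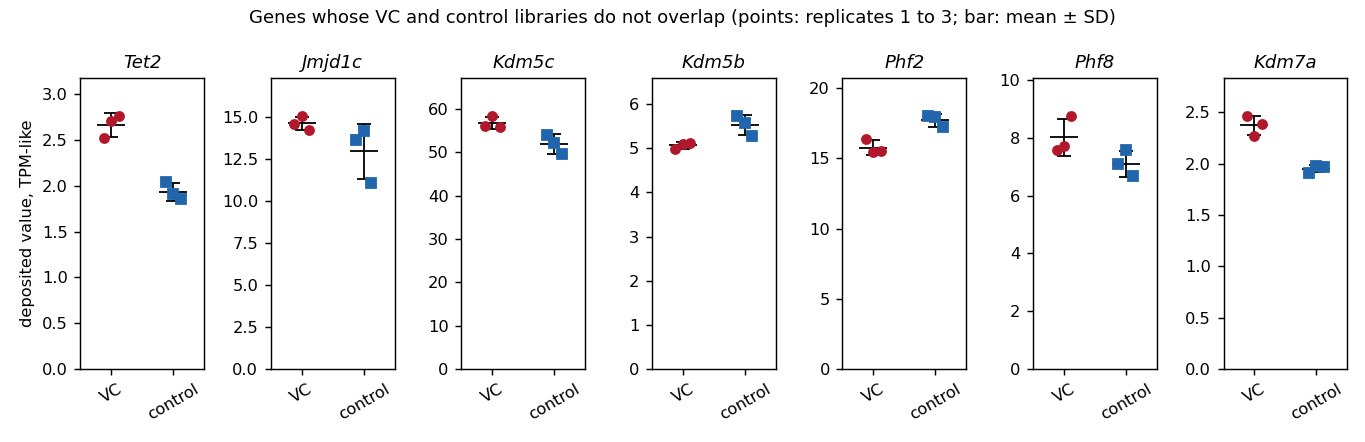
Deposited values of the 7 members whose VC and control libraries do not overlap, with points for replicates 1 to 3, and the mean with SD as a bar; each axis starts at 0. VC lies above control for Tet2, Jmjd1c, Kdm5c, Phf8 and Kdm7a and below control for Kdm5b and Phf2, and none had a limma adjusted p under 0.05.

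The KDM6 enzymes remove the repressive trimethylation of lysine 27 of histone H3, set by PRC2. Kdm6b stood at 12.4, 12.04 and 14.1 in VC and at 13.0, 13.8 and 12.4 in control. The groups overlapped (difference -0.02, limma adjusted p = 0.90). Kdm6a, which is X-linked, averaged 7.65 in VC and 8.23 in control with overlap (adjusted p = 0.63). The ratio of Kdm6a plus Kdm6b to Ezh1 plus Ezh2, the erasers over the enzymes that set the mark, was 0.438 ± 0.0292 in VC and 0.435 ± 0.0128 in control. Uty, the Y-linked homologue of Kdm6a, was under the filter at 0.199, 0.384 and 0.381 in VC and 0.435, 0.244 and 0.271 in control.

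The KDM7 enzymes pair a PHD finger that reads trimethylated lysine 4 with a JmjC domain that acts on other lysines. All 3 of them separated VC from control, in different directions, against 25.6% of all genes tested and 24.1% of the family. A class of 3 genes is too small to set this share apart. Phf2 stood at 16.4, 15.5 and 15.5 in VC and at 18.0, 18.0 and 17.2 in control. All VC libraries were below all control libraries (limma difference -0.16, SE 0.049, adjusted p = 0.18, limma-voom adjusted p = 0.145, n = 3 each).

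Phf8, which acts on dimethylated lysine 9 and is X-linked, stood at 7.58, 7.71 and 8.74 in VC and at 7.08, 7.57 and 6.67 in control. The groups were separated by a narrow margin (difference 0.15, SE 0.081, limma adjusted p = 0.39). Kdm7a, which acts on lysines 9 and 27, stood at 2.46, 2.27 and 2.38 in VC and at 1.91, 1.98 and 1.96 in control. These rest on 203, 176 and 193 reads in VC and 149, 158 and 164 in control, and VC was the higher group in all libraries (difference 0.19, SE 0.11, adjusted p = 0.42).

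The shares of the KDM7 genes in their sum restate the values above and did not overlap between the groups. Their sum was 26.2 ± 0.629 in VC and 26.8 ± 0.849 in control, with overlap. Phf2 gave 60.3% ± 1.91 of it in VC and 66.2% ± 0.789 in control, Phf8 gave 30.6% ± 2.07 in VC and 26.5% ± 0.903 in control, and Kdm7a gave 9.06% ± 0.218 in VC and 7.29% ± 0.272 in control (SD, n = 3 each). The ratio of Phf8 to Phf2 was 0.509 ± 0.0509 in VC and 0.401 ± 0.0184 in control, with no overlap. Separation of this ratio and of the Phf2 share was fixed in advance. Phf2 was lower, and Phf8 and Kdm7a higher, in every VC library. Shares and ratio are the same under any library scaling.

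**Figure D3:**
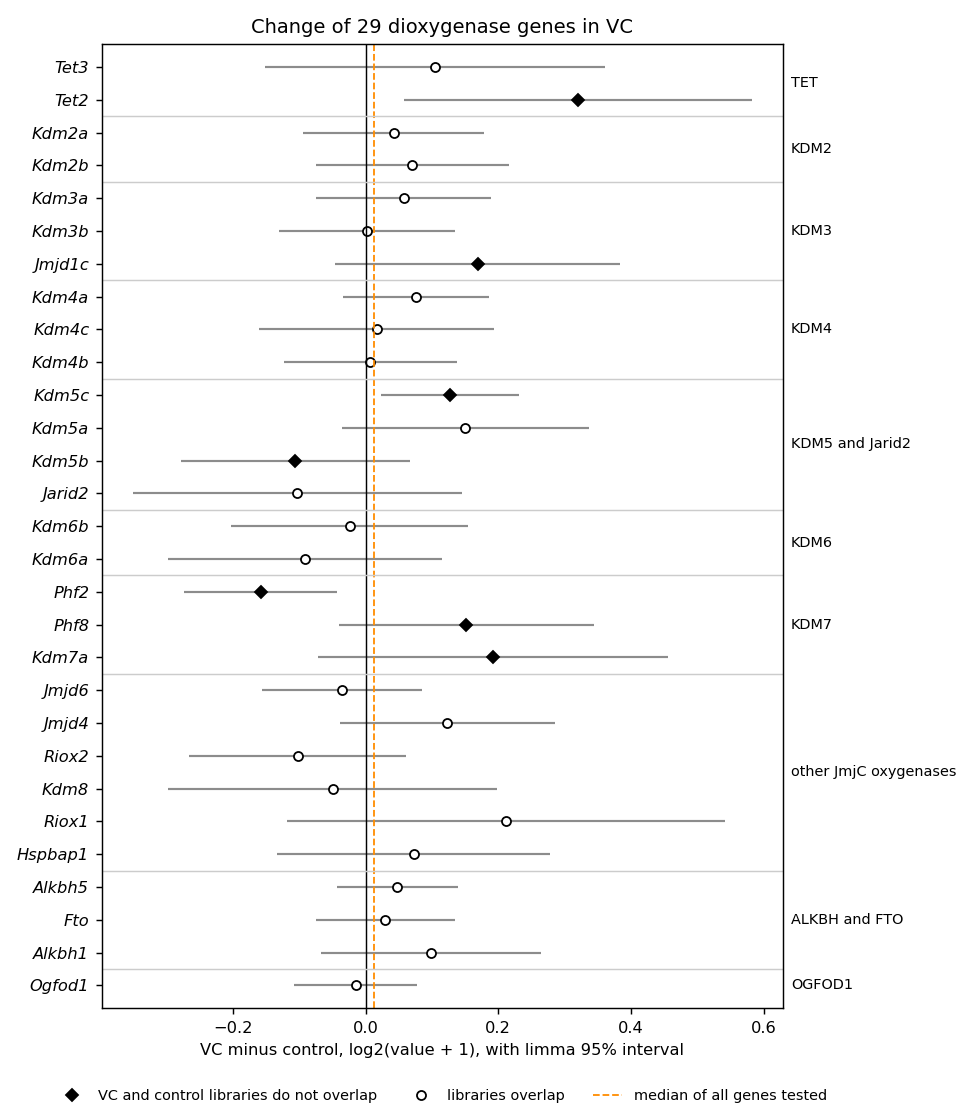
Difference between VC and control on the log2(value + 1) scale for the 29 members, with limma's 95% interval; filled diamonds mark genes whose libraries do not overlap, and the dashed line is the median of all genes tested, 0.012. The intervals of Tet2, Kdm5c and Phf2 leave out 0 before adjustment, while no member had an adjusted p under 0.05.

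The other JmjC oxygenases mostly hydroxylate proteins of RNA processing and translation. Jmjd6, a lysyl hydroxylase of splicing factors, stood at 54.4, 50.8 and 56.1 in VC and at 54.2, 53.5 and 57.7 in control. The groups overlapped (difference -0.04, limma adjusted p = 0.76). Riox1, a ribosomal histidine hydroxylase, stood at 6.14, 8.53 and 9.06 in VC and 6.01, 7.03 and 6.83 in control, with overlap and an adjusted p of 0.48. Gm26571 on the opposite strand shares 31.9% of its exon bases. Riox2, the other ribosomal histidine hydroxylase, averaged 9.21 in VC and 9.96 in control (adjusted p = 0.49), and Crybg3 on the opposite strand shares 22.4% of its exon bases. Jmjd4, which hydroxylates a translation termination factor, averaged 11.1 in VC and 10.1 in control (adjusted p = 0.40). Kdm8 (adjusted p = 0.85) and Hspbap1 (adjusted p = 0.71) overlapped too.

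ALKBH5 and FTO remove N6-methyladenosine (m6A) from RNA, and ALKBH1 acts on methylated transfer RNA. Alkbh5 stood at 91.5, 89.7 and 93.0 in VC and at 91.6, 88.3 and 85.3 in control. The groups overlapped, with control replicate 3 the lowest (difference 0.05, limma adjusted p = 0.57). Fto averaged 21.6 in VC and 21.1 in control (adjusted p = 0.77), and Alkbh1 averaged 11.1 in VC and 10.4 in control (adjusted p = 0.51), both with overlap. Relative to the m6A methyltransferase core, the ratio of Alkbh5 plus Fto to Mettl3 plus Mettl14 was 5.02, 4.92 and 5.15 in VC and 4.66, 4.60 and 4.61 in control, without overlap. Of these genes only Mettl14, a methyltransferase subunit, was separated. It stood at 11.3, 11.9 and 11.4 in VC and 13.2, 12.9 and 12.9 in control (difference -0.17, limma adjusted p = 0.17). Alkbh5, Fto and Mettl3 overlapped, and each was lowest in control replicate 3. The part of each gene in the ratio was not tested. Ogfod1, which hydroxylates a proline of a ribosomal protein, stood at 39.9, 41.2 and 42.4 in VC and at 42.2, 41.7 and 41.0 in control, with overlap (difference -0.01, adjusted p = 0.88).

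Control replicate 3 was low in long genes, and most members are long. The median total exon length of the members was 8225 bases, and 19 of the 29 were in the longest of 4 equal length groups of genes tested, at 6099 bases or more. Control replicate 3 was the lowest of the 3 control libraries in 22 of 29 members (75.9%), against 38.6% of all genes tested. In the longest group it was the lowest control in 16 of 19 members, against 68.7% of all genes of that group. On the log2(value + 1) scale it lay 0.37 below the mean of the other 2 controls in Tet3 and 0.30 below it in Jmjd1c, whereas it lay 0.059 below it in Tet2 and 0.082 below it in Kdm5b, genes of similar length. The median of this difference was -0.10 for the 19 members of the longest group and -0.035 for the 10 shorter members, against -0.098 for all genes of the longest group.

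The median difference between VC and control was 0.073 for the 19 members of the longest group, against 0.054 for all genes of that group, and -0.0039 for the 10 shorter members. Without control replicate 3, the median of the family was 0.013. With 2 control libraries left, separation is easier to reach and none of the 7 separated genes could lose it; 6 more were separated, giving 13 of 29 (44.8%) against 37.1% of all genes. Of these 6, Kdm2b and Hspbap1 were the higher in VC, and Kdm3b, Kdm4c, Kdm6a and Jarid2 the lower. The part of gene length in these differences was not tested beyond these values and the removal of a length trend described with the alternatives.

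**Figure D4:**
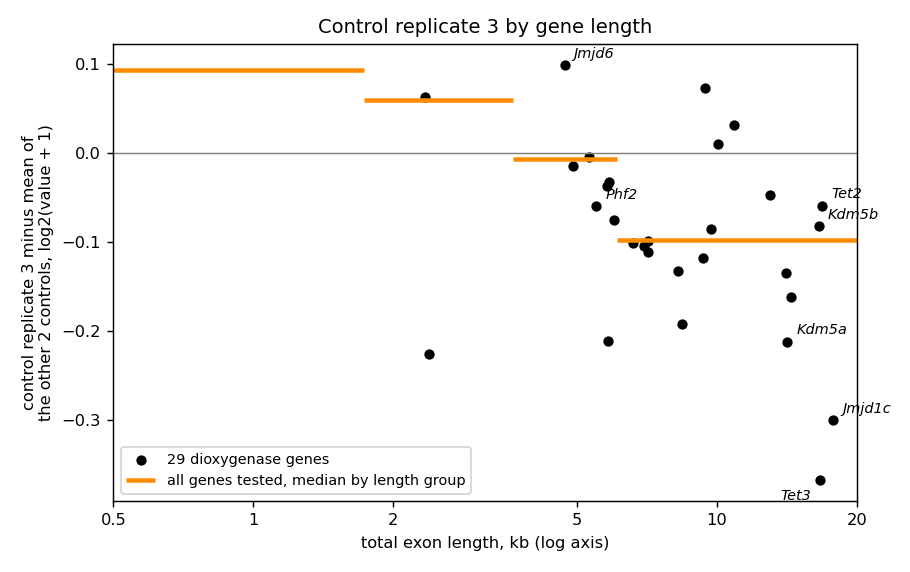
Control replicate 3 minus the mean of the other 2 control libraries on the log2(value + 1) scale, against total exon length on a log axis, for the 29 members (points) and as medians of all genes tested in 4 length groups (bars, cut at the ends of the axis). Tet3 and Jmjd1c lie lowest at -0.37 and -0.30, members of similar length such as Tet2 lie near -0.06, and the median of all genes is lowest in the longest group.

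The partners of these enzymes were described from 11 lists with 124 genes, 123 of them in the table and 116 tested. Of the 116, 0 had a limma adjusted p under 0.05, against 0.687% of all genes, and 22 had an unadjusted p under 0.05, against 17.2%. Separated between VC and control were 29 (25%), against 25.6% of all genes. By list the separated share ran from 0% to 60%, among 5 to 23 tested genes each, and is to be set against the same 25.6%. The median difference was 0.024. Limma-voom on the recovered reads called 4 of the partner genes, Skp1a, Rbm15, Idh1 and Ogdh, against 3.98% of all genes.

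In the DNA methylation list 2 of 14 genes were separated, and Gadd45a, a factor linked to active demethylation, had the smallest p (difference 0.19, limma adjusted p = 0.15). Among the H3K4 methyltransferases and their core partners, 0 of 12 were separated, and Dpy30, a shared core subunit, had the smallest p (-0.20, adjusted p = 0.28). Among the H3K9 methyltransferases 2 of 7 were separated, with Suv39h2 at -0.27 (adjusted p = 0.21). Among the H3K36 methyltransferases 1 of 6 was separated, with Nsd1 at 0.20 (adjusted p = 0.40), and in the list of flavin-dependent demethylases and CoREST 2 of 5, with Rcor2 at -0.13 (adjusted p = 0.28).

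In PRC2, the writer that opposes KDM6, 6 of 10 genes (60%) were separated, against 25.6% of all genes. This was the highest share of the 11 lists, which together stood at 25%. As the highest of 11 small lists, it does not set PRC2 apart. Ezh2 and Suz12 were among the genes that overlapped. Rbbp7, a histone-binding subunit, had the smallest p, at 268, 263 and 268 in VC and 289, 287 and 309 in control (difference -0.15, limma adjusted p = 0.13). In the variant PRC1 of KDM2B 3 of 9 were separated, and Skp1a, a subunit shared with ubiquitin ligases, stood at 200, 190 and 193 in VC and 219, 223 and 234 in control (difference -0.21, limma adjusted p = 0.073, limma-voom adjusted p = 0.019). Both genes were lower in every VC library.

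Among the m6A writers 4 of 9 genes (44.4%) were separated, against 25.6% of all genes. Rbm15, an adaptor of the writer complex, stood at 21.6, 20.3 and 23.2 in VC and 17.7, 19.4 and 16.6 in control (difference 0.27, limma adjusted p = 0.15, limma-voom adjusted p = 0.038). Among the m6A readers 1 of 8 was separated, with Ythdf2 at -0.11 (adjusted p = 0.30). In 2-oxoglutarate, succinate and fumarate metabolism 7 of 23 were separated, and Ogdh, a subunit of the 2-oxoglutarate dehydrogenase complex that consumes the cosubstrate, stood at 103, 101 and 102 in VC and 91.9, 90.6 and 88.0 in control (difference 0.18, limma adjusted p = 0.073, limma-voom adjusted p = 0.027). Among 13 further oxygenases of these kinds that were tested, 1 was separated, Ogfod3 at -0.33 (adjusted p = 0.31).

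**Figure D5:**
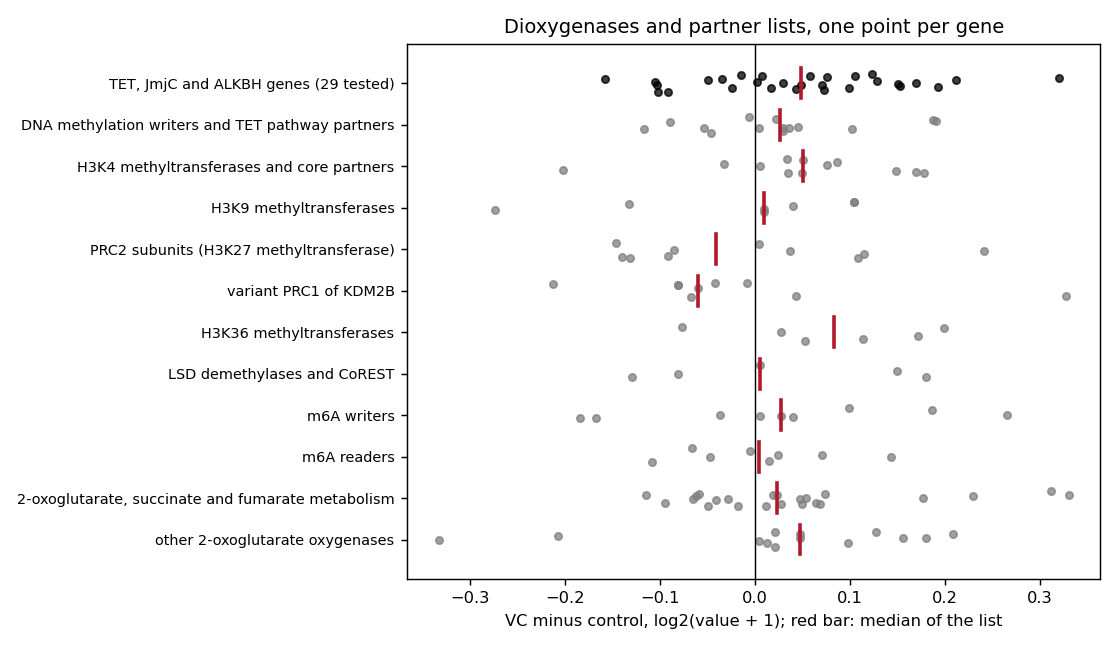
Difference between VC and control on the log2(value + 1) scale, with 1 point for each tested gene, for the dioxygenases and for 11 partner lists (LSD stands for the flavin-dependent lysine demethylases); red bars are medians. Every list spreads around 0, and the median is 0.05 for the dioxygenases and 0.024 over all partner genes.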

How the data were processed

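Libraries were made from Trizol-extracted total RNA with a TruSeq RNA kit, per the labels' protocols; strand is not stated. Reads were aligned with HISAT2 to GRCm39, per the submitters' processing notes; counter and annotation: not given in the sources used here. Each deposited value is a signal per gene and library from the authors, transcripts-per-million-like and multiplied by 1 factor per library; the table's name points to TMM scaling. Symbols were matched for 52081 and lengths (GENCODE M21, on build GRCm38) for 52133 of 55414 identifiers. Shared exon bases were taken from the same annotation, so they rest on coordinates of GRCm38 and not of GRCm39. Value times exon length gave whole multiples of 1 read, within 0.1 read, for 98.7% to 98.9% of the values checked, so reads could be recovered. The check took 15832 to 16306 values a library and left out high values and the longest genes, Tet2 (16870 bases) among them. The recovered reads served depth, the counts of low members and the limma-voom alternative.

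Genes that reached a value of 1 in at least 3 of 6 libraries were compared on log2(value + 1), VC minus control, with limma 3.58.1 (R 4.3.3), intensity trend, two-sided, Benjamini-Hochberg adjustment over all genes and a threshold of 0.05; the script was tested on simulated data. Tables used Python 3.11.15 and pandas 2.3.3. Alternatives changed the pseudocount, filter, scaling, prior, library weights, replicate block, length trend, count model and libraries. The members and lists were chosen with earlier results of these data known. All 31 members are accounted for; values by library are given for members whose groups do not overlap, for the highest member of each class and, from each partner list, test values for the gene with the smallest p.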

Additional observations from a re-analysis of the deposited data

How the results depend on the processing

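The number of dioxygenases called was 0 under all alternatives but limma-voom on recovered reads, which called 1 (Tet2). The number of all genes called, 96, became 217 with equal totals (83.9% of them higher in VC, against 62.5% in the reported fit), 249 with the length trend removed, 254 with library weights, 548 with limma-voom, 183 with a mean of at least 5, 30 with no filter, 6 with no trend in the prior, and 0 to 82 with 1 library left out (82 without control replicate 3 and at most 1 without any other). The family's median difference became 0.12 with equal totals and -0.0047 with the length trend removed, against 0.05. The separated members became 13 with equal totals, against 7, while the share over all genes became 30.4%, against 25.6%. With 1 library left out, which makes separation easier for any gene, they numbered 9 to 13 and the share over all genes was 33.0% to 37.1%; the count was not computed for quantile scaling, the length trend, limma-voom or no filter. Same-numbered VC and control samples had small correlations of their deviations from the group mean (-0.019, -0.011 and 0.0051). With so few libraries a group, these values cannot exclude a shared culture or day. With the replicate block 0 members and 0 genes in all were called, and 2039 genes had an unadjusted limma p under 0.05.

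Of 518 recomputed differences of single members, 32 had the opposite sign, in 12 genes whose reported difference was at most 0.10. With equal totals Jmjd6 became 0.036, Kdm6b 0.043, Kdm8 0.015 and Ogfod1 0.056. With the length trend removed Fto became -0.046, Hspbap1 -0.0028, Kdm2a -0.033, Kdm2b -0.0047, Kdm3b -0.073, Kdm4b -0.0089 and Kdm4c -0.013. With quantile scaling Fto became -0.0038, Kdm3b -0.028, Kdm4b -0.041 and Kdm4c -0.017, and with library weights Kdm3b became -0.026 and Kdm4c -0.030. With 1 library left out Jmjd6 ran from -0.066 to 0.0039, Kdm2a from -0.011 to 0.082, Kdm3b from -0.042 to 0.027, Kdm4b from -0.0055 to 0.028, Kdm4c from -0.054 to 0.064, Kdm6b from -0.088 to 0.018, Kdm8 from -0.125 to 0.033, Ogfod1 from -0.036 to 0.0070 and Tet3 from -0.018 to 0.17. The cause was not tested. Depth limits Tet1 and Kdm4d, and 3 libraries a group limit all members.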

Other observations

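Further genes around the dioxygenases were separated between VC and control; the choice was made with their values in view, and none had a limma adjusted p under 0.05. Among the enzymes of 2-oxoglutarate supply and use, Idh1, which makes 2-oxoglutarate in the cytosol, stood at 61.4, 58.9 and 62.5 in VC and 51.9, 49.5 and 54.1 in control (difference 0.23, limma adjusted p = 0.082, limma-voom adjusted p = 0.032). Ogdhl, a relative of Ogdh, averaged 7.25 ± 0.591 in VC and 5.64 ± 0.177 in control (SD, n = 3 each; limma adjusted p = 0.13). Idh3a and Idh3g, subunits of the mitochondrial NAD-dependent isocitrate dehydrogenase, were on the lower side in VC, at 99.9 ± 0.976 in VC and 104.4 ± 0.218 in control for Idh3a (limma adjusted p = 0.33) and 63.2 ± 2.70 in VC and 68.5 ± 2.75 in control for Idh3g (limma adjusted p = 0.28).

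Of the 6 separated PRC2 genes, Eed, Rbbp4, Rbbp7 and Aebp2 were lower in VC, and Phf1 and Ezh1 were higher. Eed, the subunit that binds the methylated product, averaged 39.5 ± 1.22 in VC and 43.6 ± 0.926 in control (limma adjusted p = 0.16). Phf1, an accessory subunit, averaged 9.06 ± 0.135 in VC and 7.56 ± 0.989 in control (limma adjusted p = 0.26). Pcgf1, the subunit that defines the variant PRC1 of KDM2B, averaged 15.8 ± 1.18 in VC and 12.4 ± 0.846 in control, with all VC libraries above all control libraries (limma adjusted p = 0.11). The differences among these genes in each complex ran in both directions.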
